A study of Mus musculus with 4 samples.

Results

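The genes described here are the nuclear-encoded subunits of the oxidative phosphorylation complexes in LSK cells, with the soluble carrier cytochrome c. LSK cells are lineage-negative bone marrow cells that carry Sca-1 and c-Kit, the fraction in which blood-forming stem and early progenitor cells are found. Members were chosen by platform symbol (Ndufa, Ndufb, Ndufc, Ndufs, Ndufv, Uqcr, Cox4 to Cox8, Atp5, Sdha to Sdhd, Cyc1 and Cycs), without pseudogenes and assembly factors. Of the 22180 genes named alone by a probe set, 80 were members. They comprised 32 of complex I, 4 of complex II, 8 of complex III, 18 of complex IV, 17 of complex V and Cycs. Ndufa4 and Ndufa4l2 were counted in complex IV, because the Ndufa4 protein is a subunit of cytochrome c oxidase despite its symbol. A further 5 genes that fit the symbols (Uqcr10, Ndufb2, Ndufb4, Ndufs6 and Cox6c) were read only by probe sets shared with other genes and are given apart.

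RNA was measured on 4 Affymetrix arrays, 1 in each group, so no value carries a replicate error. The groups were Ctrl Basal and AMKO Basal (day 0), and Ctrl 5FU and AMKO 5FU (day 8 after 150 mg/kg of 5-fluorouracil, a pyrimidine analog that kills dividing cells). All mice were male, of strain C57/B6 and aged 4 months per the labels, which do not say what AMKO stands for or how many mice gave an array. The series describes the injection as a means to activate stem cells, and the comparison asks how LSK cells of each genotype sorted 8 days later differed from those at Basal.

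The respiratory chain passes electrons from NADH (complex I) or succinate (complex II) through ubiquinone, complex III and cytochrome c to oxygen at complex IV, and complexes I, III and IV pump protons across the inner mitochondrial membrane. Complex V, the ATP synthase, uses the returning protons to make ATP. All complexes but complex II combine subunits encoded in the nucleus with subunits encoded in the mitochondrial genome. Resting hematopoietic stem cells are known to rely largely on glycolysis, and oxidative phosphorylation increases as they are activated and differentiate.

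The 65 members with an entry in the RefSeq promoter table (GRCm38.p6; 250 bases before to 50 after the start) were searched on both strands for the letters of sites linked to respiratory genes. Further patterns were searched before these were chosen, so the shares are a description. The NRF1 letters (GCGCA and GCGC with any 1 base between them) were held by 15 members, or 23.1%, against 5.19% of 27025 genes. These 27025 are all genes of the promoter table and were not limited to genes expressed in LSK cells. The ETS and GABPA letters CCGGAAG were held by 17, or 26.2%, against 9.93%. The YY1 letters AAGATGGC were held by 9, or 13.8%, against 3.19%. The E-box CACGTG was in 6 members (9.23% against 8.09% of genes) and the CCAAT box in 27 (41.5% against 41.1%). A match is a description of the letters and not a site in use. The 200 bases before the start of 5 members are shown, read 5′ to 3′ on the gene's strand, with NRF1, ETS and CCAAT letters of either strand in capitals. They were picked after their values and matches were seen: Cox6a1, Cox6b1, Sdhd and Cycs were among the higher genes of their groups at day 8, and Cox7a1, a muscle isoform, is shown beside them because its values went the other way in Ctrl.
Cox6a1 (chr5:115348959-115349158, minus strand): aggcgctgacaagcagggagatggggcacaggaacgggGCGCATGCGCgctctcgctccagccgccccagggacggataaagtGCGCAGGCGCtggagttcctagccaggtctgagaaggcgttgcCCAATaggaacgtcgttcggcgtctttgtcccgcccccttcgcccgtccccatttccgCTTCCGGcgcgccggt
Cox6b1 (chr7:30626115-30626314, minus strand): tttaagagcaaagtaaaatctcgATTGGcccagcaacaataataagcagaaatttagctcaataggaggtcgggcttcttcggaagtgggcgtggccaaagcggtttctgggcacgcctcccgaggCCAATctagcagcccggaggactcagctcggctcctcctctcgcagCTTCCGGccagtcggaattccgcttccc
Sdhd (chr9:50603850-50604049, minus strand): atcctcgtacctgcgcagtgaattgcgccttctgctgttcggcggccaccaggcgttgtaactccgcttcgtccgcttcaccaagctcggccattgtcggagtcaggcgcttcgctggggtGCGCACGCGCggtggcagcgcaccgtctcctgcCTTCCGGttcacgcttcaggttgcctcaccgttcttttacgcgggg
Cycs (chr6:50566570-50566769, minus strand): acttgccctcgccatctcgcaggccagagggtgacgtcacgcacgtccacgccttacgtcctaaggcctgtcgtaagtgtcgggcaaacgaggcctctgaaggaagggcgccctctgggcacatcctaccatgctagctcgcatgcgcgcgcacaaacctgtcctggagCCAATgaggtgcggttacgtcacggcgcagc
Cox7a1 (chr7:30183971-30184170, plus strand): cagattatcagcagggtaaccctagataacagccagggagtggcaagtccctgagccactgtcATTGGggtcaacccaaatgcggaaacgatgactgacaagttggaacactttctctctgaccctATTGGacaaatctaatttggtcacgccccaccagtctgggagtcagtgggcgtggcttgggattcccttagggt
In these windows Cox6a1 held 2 NRF1 matches and 1 ETS match, Sdhd held 1 of each, and Cox6b1 held 1 ETS match. Cycs and Cox7a1 held CCAAT matches alone.

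The deposited values were read as log2, and genes were kept if at least 1 array reached 5.475, the median of all values. This floor kept 14061 genes, 74 of them members. Of the 74, 72 lay above the floor on every array. The 6 members under it were Ndufs5, Atp5j2, Cox8b, Cox8c, Cox7b2 and Ndufa4l2, by the probe sets that name them alone. Ndufs5 is also read, with its pseudogene Ndufs5-ps, by a shared probe set above the floor. The Ctrl 5FU array carried high markers of other blood cells. The median log2 value of 10 neutrophil markers was 10.91 there and 5.24 to 5.56 on the other arrays, and that of 7 B-lineage markers was 8.12 against 4.98 to 5.37. For 7 monocyte and macrophage markers it was 7.34 against 5.08 to 5.51, and for 4 erythroid markers 7.74 against 5.55 to 5.71. The Ctrl Basal array carried skeletal muscle markers (median of 12 genes 8.59, against 5.50 to 6.0). Xist, which is expressed in female cells, had log2 values of 4.23 and 4.41 at Basal and 3.97 in AMKO at day 8, but 7.65 on the Ctrl 5FU array, although the label says male. Markers of LSK cells also differed between day 8 and Basal in both genotypes. Kit, the gene of the c-Kit sort marker, had 11.84 and 11.87 at Basal against 11.08 and 11.16 at day 8 (-0.76 in Ctrl and -0.71 in AMKO, limma adjusted p = 0.0732). Of the 6 LSK markers measured, Kit, Meis1 (-0.77 and -0.70), Procr (-1.64 and -0.70) and Slamf1 (-0.48 and -0.36) were lower in both genotypes. Cd34 (1.03 and 0.64) and Flt3 (1.57 and 0.52) were higher. Ly6a was not read by a probe set of its own. The AMKO differences are computed from neither Ctrl array, although the floor and the choice of probe sets used all 4. The AMKO arrays had marker shifts of their own: the muscle gene Pygm had 9.23 at Basal and 6.75 at day 8, and the neutrophil gene S100a8 had 4.27 and 5.48. The median AMKO difference was -0.21 over the 11 kept muscle markers, with 2 above 0 and 9 below. Of these, 4 were at least 1.5-fold lower (10.5% of all genes) and 1 at least 1.5-fold higher (15.4%). The median was 0.02 over the 10 neutrophil markers, with 5 above 0 and 5 below. It was 0.41 over the 6 kept monocyte and macrophage markers, with 5 above 0 and 1 below. Over 7 B-lineage markers it was 0.09, and over 4 erythroid markers -0.31. The part of other cells, or of a changed LSK mix, in the values of either genotype was not tested. In sorted populations a change in the mix of cells and a change in RNA per cell cannot be told apart.

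Subunit genes of every complex had higher medians at day 8 than at Basal in both genotypes. The median log2 difference over the 74 kept members was 0.45 in Ctrl and 0.70 in AMKO, against 0.01 and 0.03 over all genes kept. Of the 74, 71 lay above 0 in Ctrl and 71 in AMKO, where 50.1% and 52.3% of all genes kept did, and 69 lay above 0 in both (37%). Both day 8 arrays were higher than both Basal arrays for 69 members, against 32% of all genes, and lower for 0 (27.7%). For the 80 members with no floor the medians were 0.42 and 0.67. The differences were moderate in size. At least 1.5-fold higher were 21 members in Ctrl (11.9% of all genes) and 47 in AMKO (15.4%), and 17 were so in both (6.59%). At least 2-fold higher were 1 member in Ctrl (5.02%) and 14 in AMKO (4.69%). Only Cox7a1 was at least 1.5-fold lower, in Ctrl (11.9% of all genes), and 0 members were so in AMKO (10.5%).

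The effect of 5FU averaged over the genotypes was fitted with limma over all 14061 genes, with an additive term for genotype. This fit sets the average against the difference between the genotypes' responses and not against replicates. It called 0 members and 0% of all genes at an adjusted p of 0.05. At an unadjusted p under 0.05 there were 51 of 74 members and 27.8% of all genes. Members' adjusted p ran from 0.0732 to 0.944. With robust estimation limma called 20 members (9.35% of all genes), after quantile normalization 11 (6.74%), and with a floor at the 75th percentile 28 of the 65 members left (15.7%). After median centring it called 0 (1.15%).

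**Figure D1:**
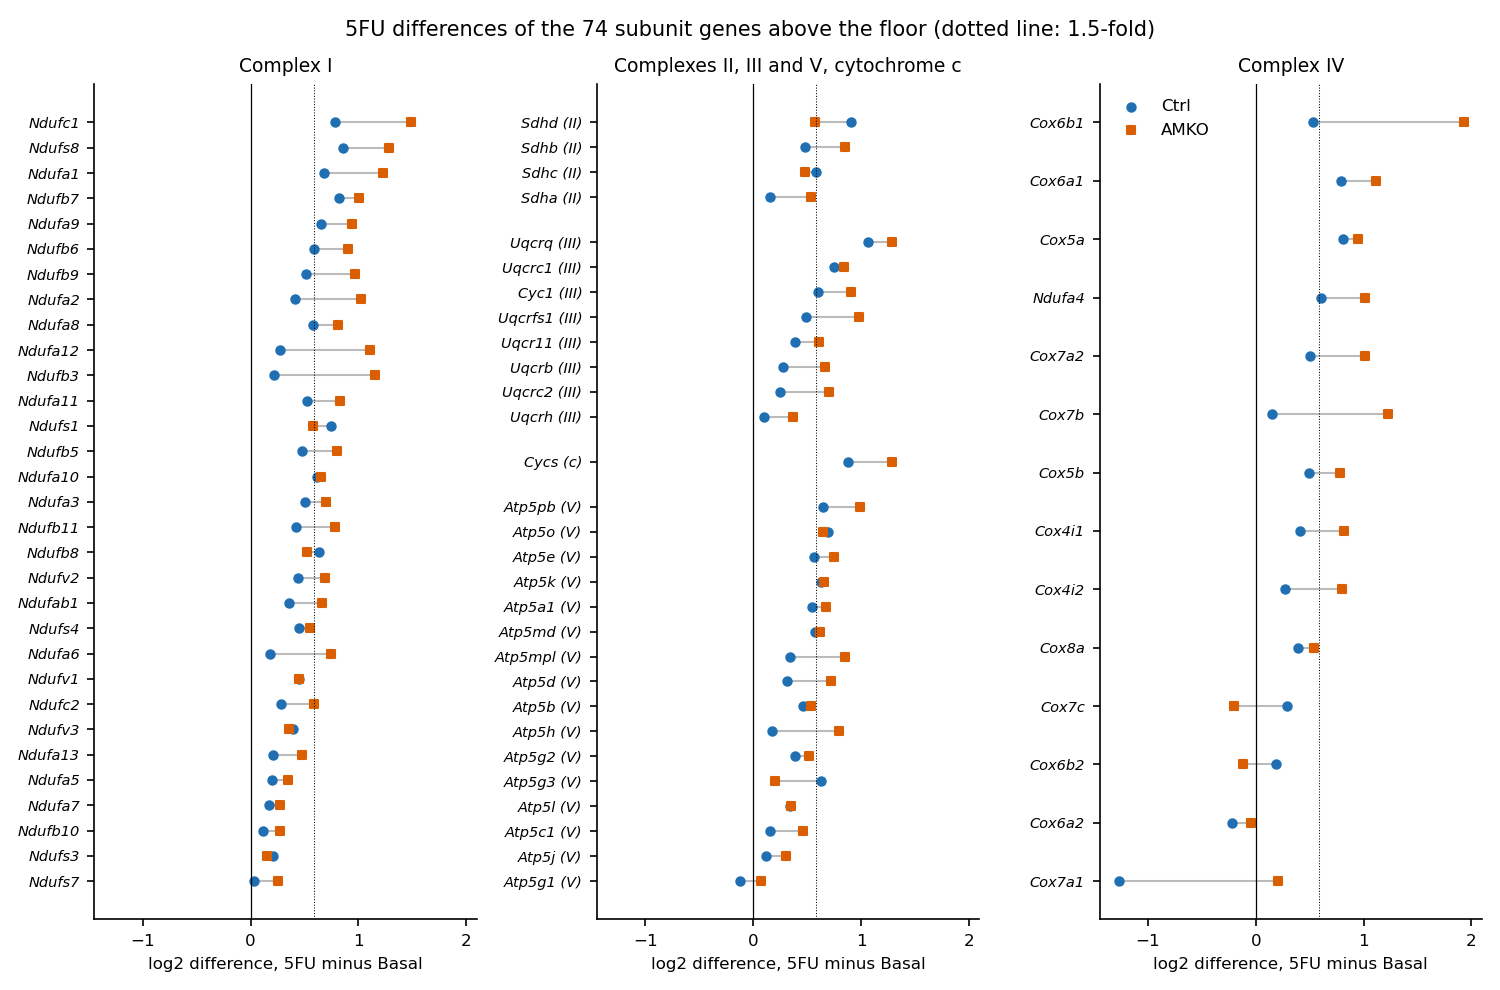
Each row is a kept subunit gene and the horizontal axis is its log2 difference, 5FU minus Basal, in Ctrl (blue circles) and AMKO (orange squares), 1 array against 1. Nearly all points lie to the right of 0 (71 of 74 in each genotype), and the AMKO square lies to the right of the Ctrl circle for 63 genes.

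Among the kept members of complex I, all 31 were above 0 in both genotypes (37% of all genes). The Ctrl median was 0.45 (range 0.03 to 0.86) and the AMKO median 0.70 (range 0.15 to 1.49). At least 1.5-fold higher were 9 in Ctrl (11.9% of all genes) and 20 in AMKO (15.4%). Ndufc1, a small membrane-arm subunit, had log2 values of 7.42 in Ctrl Basal, 6.99 in AMKO Basal, 8.20 in Ctrl 5FU and 8.48 in AMKO 5FU. Its day 8 values were both above its Basal values, as for 32% of all genes. The differences were 0.78 and 1.49 (average 1.14, standard error 0.23, limma adjusted p = 0.0943). Ndufs8, a catalytic core subunit that carries iron-sulfur clusters, had 8.29 and 8.09 at Basal against 9.15 and 9.37 at day 8. It differed by 0.86 in Ctrl and 1.28 in AMKO (standard error of the average 0.16, limma adjusted p = 0.0763). The lowest was another core iron-sulfur subunit, Ndufs7, with 9.03 and 8.97 at Basal against 9.06 and 9.22 at day 8. Its Ctrl difference of 0.03 was -0.08 after quantile normalization. The 6 core subunits measured, which hold the flavin and the iron-sulfur clusters, had a Ctrl median of 0.45 and an AMKO median of 0.52. The 25 kept accessory subunits, which surround the core and are needed for its assembly, had medians of 0.45 and 0.78.

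Complex II, the succinate dehydrogenase that also works in the tricarboxylic acid cycle, has no mitochondrially encoded subunit. Its 4 genes were above 0 in both genotypes (37% of all genes), with medians of 0.53 in Ctrl and 0.56 in AMKO. Sdhd, a membrane anchor, had 7.77 in Ctrl Basal, 8.19 in AMKO Basal, 8.68 in Ctrl 5FU and 8.76 in AMKO 5FU. Its difference was larger in Ctrl (0.91) than in AMKO (0.57), and the other anchor, Sdhc, had 0.58 and 0.48. The catalytic subunits went the other way. Sdhb, the iron-sulfur subunit, had 8.82 and 8.72 at Basal and 9.30 and 9.57 at day 8 (0.48 in Ctrl and 0.85 in AMKO). Sdha, the flavin subunit, had 10.54 and 10.36 against 10.70 and 10.90 (0.16 and 0.54).

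All 8 complex III members were above 0 in both genotypes (37% of all genes), with medians of 0.44 in Ctrl and 0.77 in AMKO. Uqcrq, a small ubiquinone-binding subunit, had Basal log2 values of 7.22 and 7.13, and 8.29 and 8.42 at day 8. The differences of 1.07 and 1.29 made it the only member at least 2-fold higher in both genotypes (standard error of the average 0.15, limma adjusted p = 0.0732). Uqcrc1, a core protein of the matrix side, had 10.76 and 10.57 against 11.51 and 11.41. The redox subunits Cyc1, which carries heme, and Uqcrfs1, the Rieske iron-sulfur protein, had differences of 0.60 and 0.49 in Ctrl and 0.91 and 0.98 in AMKO. Uqcrh, the hinge protein, had the smallest, 0.10 and 0.37, from 7.65 and 7.57 at Basal to 7.75 and 7.94 at day 8. Cycs, the cytochrome c that links complexes III and IV, had 10.43 and 10.19 at Basal and 11.31 and 11.48 at day 8. Its differences were 0.88 in Ctrl and 1.29 in AMKO (standard error of the average 0.14, limma adjusted p = 0.0732). All 5 probe sets that name Cycs alone had higher values at day 8, by 0.67 to 1.13 in Ctrl and 1.17 to 2.11 in AMKO, and 2 of the 5 hold the same values.

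Complex IV had the widest spread. Over its 14 kept members the medians were 0.40 in Ctrl and 0.81 in AMKO, and the ranges ran from -1.27 to 0.81 and from -0.20 to 1.93. The 10 subunits with broad expression had medians of 0.50 and 0.98. Cox6b1, which bridges the monomers of the dimer on the intermembrane side, had 9.11 in Ctrl Basal, 8.05 in AMKO Basal, 9.64 in Ctrl 5FU and 9.98 in AMKO 5FU. The AMKO Basal value was the low one, and the differences were 0.53 and 1.93 (standard error of the average 0.39, limma adjusted p = 0.159). Cox6a1 had 10.47 and 10.35 at Basal and 11.26 and 11.47 at day 8, with differences of 0.79 and 1.12 (limma adjusted p = 0.0732). Ndufa4 had 10.26 and 10.04 against 10.87 and 11.05. Cox7c was the exception among the broad subunits, with 7.28 and 7.49 at Basal and 7.57 and 7.29 at day 8, a difference of 0.29 in Ctrl and -0.20 in AMKO.

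Several complex IV subunits exist as a broad form and a form restricted to some tissues, and some of the pairs differed. The broad forms Cox4i1 (0.41 and 0.82), Cox7a2 (0.50 and 1.01) and Cox8a (0.39 and 0.54) were higher at day 8 in both genotypes. The heart and muscle form Cox7a1 had 6.98 in Ctrl Basal, 6.22 in AMKO Basal, 5.71 in Ctrl 5FU and 6.43 in AMKO 5FU. Its differences were -1.27 in Ctrl and 0.21 in AMKO. Cox6a2, also of heart and muscle, had 6.69 and 6.14 at Basal against 6.47 and 6.10 at day 8, and its AMKO difference of -0.04 was 0.07 after either rescaling. Cox8b, another such form, had 5.46, 4.80, 5.14 and 4.40 in the same order, all under the floor. All 3 were highest on the Ctrl Basal array, where 11 of 12 skeletal muscle markers were also highest. The part of muscle RNA in these values was not tested. Cox4i2, a form linked to lung and low oxygen, had 5.78 and 5.56 at Basal against 6.05 and 6.36 at day 8. Its differences of 0.27 and 0.80 went the same way as those of Cox4i1. Ndufa4l2, a paralog of Ndufa4 induced by low oxygen, lay between 4.05 and 4.56 on the 4 arrays, under the floor. Of the 8 restricted forms 4 were kept, and 2 of these were above 0 in Ctrl (50.1% of all genes kept) and 2 in AMKO (52.3%). Their medians were -0.01 and 0.09. With no floor, which adds 4 forms with values under it, 2 of 8 were above 0 in Ctrl and 3 in AMKO. The medians were then -0.24 and -0.05, and no share over all genes was counted without the floor.

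Over its 16 kept members complex V had a Ctrl median of 0.43 and an AMKO median of 0.64. Above 0 were 15 in Ctrl (50.1% of all genes) and 16 in AMKO (52.3%). The 5 subunits of the catalytic F1 head had medians of 0.46 and 0.68. The alpha and beta chains Atp5a1 and Atp5b lay at 0.55 and 0.46 in Ctrl and at 0.68 and 0.54 in AMKO. In the peripheral stalk, which holds the head still, Atp5pb had 10.09 and 9.73 at Basal and 10.74 and 10.72 at day 8 (0.65 and 0.99, limma adjusted p = 0.0803). Atp5o, also of the stalk, had 5.52 and 5.54 against 6.21 and 6.19, with both Basal values close to the floor. The c ring, which turns as protons pass, is built of 1 protein encoded by 3 genes, and these differed. Atp5g2 had 10.78 and 10.60 at Basal and 11.17 and 11.12 at day 8 (0.39 and 0.52), and Atp5g3 had 8.52 and 8.61 against 9.15 and 8.81 (0.63 and 0.20). Atp5g1 stayed between 5.47 and 5.59 on the 4 arrays, at the floor.

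**Figure D2:**
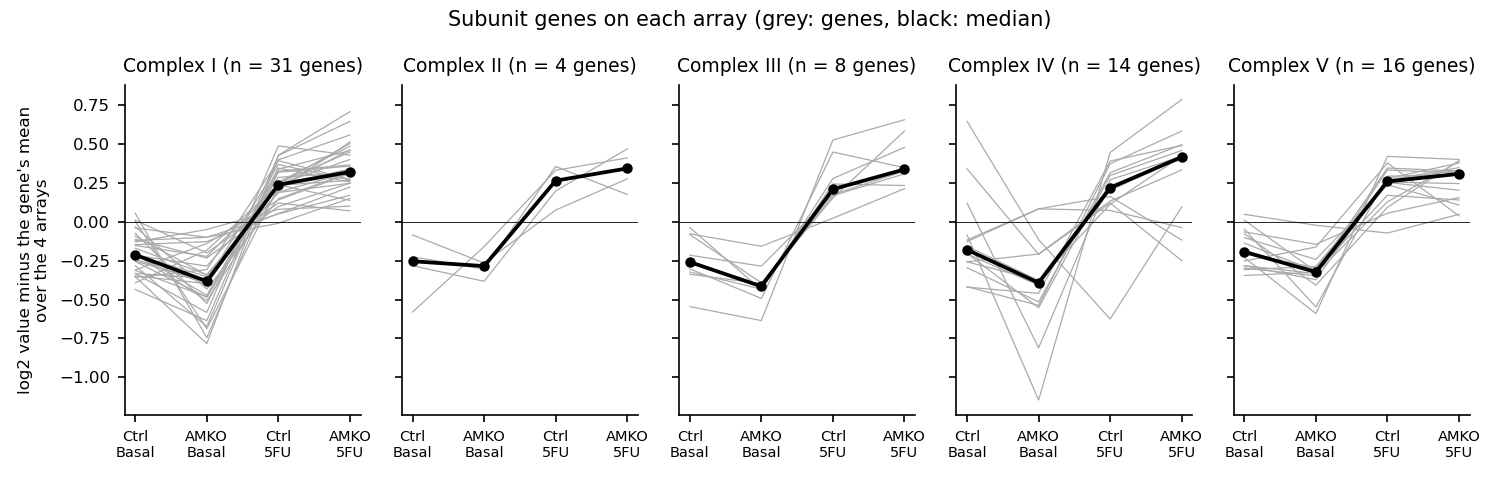
Each panel is a complex, the horizontal axis gives the 4 arrays and the vertical axis the log2 value of a gene minus its mean over the arrays. Grey lines are genes and the black line is their median, which lies lowest on AMKO Basal and highest on AMKO 5FU in each complex.

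The 5FU difference was larger in AMKO than in Ctrl for most subunit genes. With 1 array in each group this difference of differences has no test. It also rests on both Ctrl arrays, which carried markers of muscle at Basal and of other blood cells at day 8. The part of those cells in the gap was not tested. It lay above 0 for 63 of 74 members, against 55.2% of all genes kept, and its median was 0.27 against 0.05. At least 1.5-fold larger in AMKO were 8 members (9.93% of all genes), a share near the background, and 3 were at least 2-fold larger (2.57%). None was at least 1.5-fold smaller (7.6%). By complex the medians were 0.27 for I, 0.14 for II, 0.29 for III, 0.37 for IV and 0.16 for V. At Basal, AMKO was below Ctrl for 61 members (49% of all genes), with a median of -0.14 against 0.00 over all genes. At day 8 it was above Ctrl for 54 (59% of all genes), with a median of 0.12 against 0.06. In complex V the day 8 median was 0.00, with 8 members above and 8 below. The AMKO Basal array held the lowest value for 58 of the 74 members, and the AMKO 5FU array the highest for 52. These 2 counts were not made over all genes kept, so how far they exceed an array-wide shift is not known.

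The largest gaps were those of Cox7a1 (1.48), Cox6b1 (1.40) and Cox7b (1.08). Cox7b, a small subunit of complex IV, had 11.12 in Ctrl Basal, 10.19 in AMKO Basal, 11.27 in Ctrl 5FU and 11.42 in AMKO 5FU. A second probe set of Cox7b, with values of 6.32, 6.18, 7.0 and 6.83, gave differences of 0.68 and 0.65 and so did not show the gap. The lowest were Cox7c (-0.49), Atp5g3 (-0.43) and Sdhd (-0.34). For Cox6b1 and Cox7b the gap lay mainly at Basal, where AMKO was lower by 1.06 and 0.93, and for Cox7a1 it lay at both times. With Ctrl Basal as the reference for AMKO 5FU, the members' median was 0.56 in place of 0.70. With AMKO Basal as the reference for Ctrl 5FU it was 0.59 in place of 0.45, and the members at least 1.5-fold higher became 37 (14.8% of all genes).

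**Figure D3:**
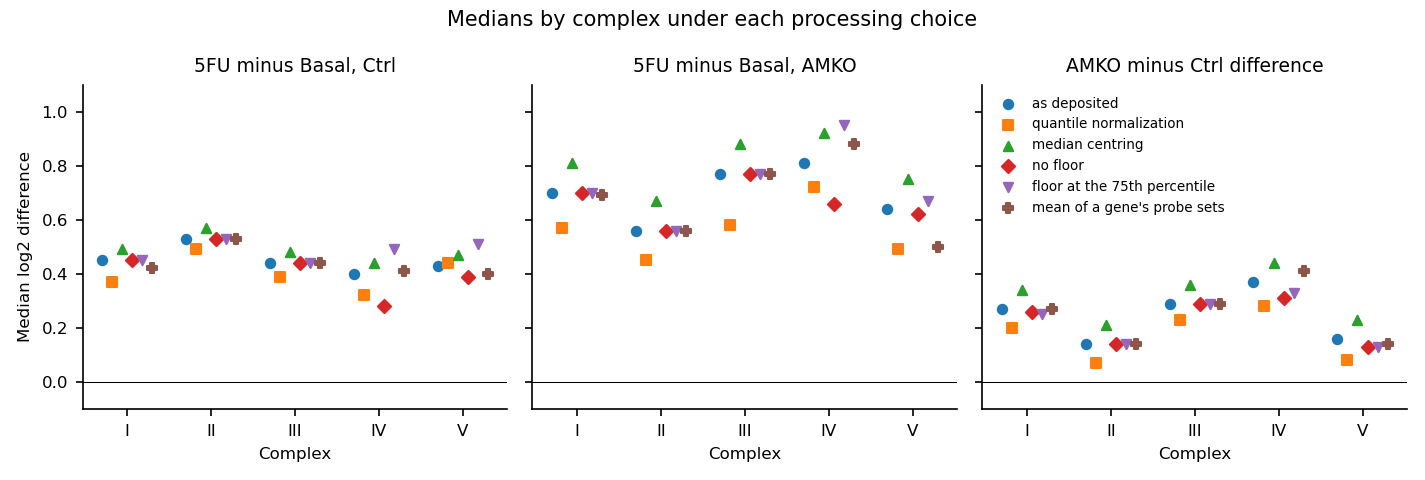
Median log2 differences by complex in Ctrl, in AMKO, and AMKO minus Ctrl, under the deposited scaling and 5 other choices (markers). Every median stays above 0, while complex II has the highest Ctrl median and complex IV the highest AMKO median as deposited.

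The order of the complexes was not the same in the genotypes. In Ctrl the medians ran from 0.40 (complex IV) to 0.53 (complex II), a narrower span than that of the genes within any complex. In AMKO they ran from 0.56 (complex II) to 0.81 (complex IV). With 4 genes in complex II and no replicates, none of these orders was tested. Complex IV moved most with the choice of genes, since its medians without a floor, which adds 4 restricted forms, were 0.28 and 0.66.

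Mitochondrially encoded subunits of complexes I, III and IV went the other way. COX2 and the mitochondrially encoded subunits of complex V were not among those measured. All 10 measured were lower at day 8 in Ctrl and 9 in AMKO, with medians of -0.32 and -0.31. Of all genes kept, 48.9% were below 0 in Ctrl and 46.8% in AMKO. ND4L, a complex I subunit, had 9.95 and 9.58 at Basal and 9.06 and 8.68 at day 8 (-0.89 and -0.90, limma adjusted p = 0.0732). COX1, the catalytic subunit of complex IV, had 13.05 and 12.85 against 12.82 and 12.67. ND3 was the highest, at -0.07 and 0.12. The medians were -0.33 and -0.37 after quantile normalization and -0.28 and -0.20 after median centring. The median value of these genes was 12.41 on Ctrl Basal, and all 10 were highest on that array. The same array carried the skeletal muscle markers, and the part of muscle RNA in these values was not tested.

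Related lists of the mitochondrion were read the same way, and limma called 0 genes of each. Of 12 measured tricarboxylic acid cycle enzymes, 11 were above 0 in both genotypes (37% of all genes), with medians of 0.40 in Ctrl and 0.77 in AMKO. Idh3a, a subunit of NAD-dependent isocitrate dehydrogenase, had 7.96 and 7.94 at Basal and 9.26 and 9.47 at day 8 (1.30 and 1.53, limma adjusted p = 0.0697). Dld, the dihydrolipoyl dehydrogenase, had differences of 1.04 and 1.17, while Idh3b, another subunit of the Idh3a enzyme, had -0.05 and -0.18. Of 50 assembly factors, 40 were above 0 in both genotypes (37% of all genes), with medians of 0.23 and 0.43. Uqcc2, of complex III, was the highest (0.89 and 1.27), followed by the complex I factor Ndufaf2 (0.97 and 0.86), and Dmac2 was the lowest (-0.26 and -0.70).

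Among 12 kept mitochondrial carriers and channels, 10 were above 0 in both genotypes (37% of all genes), with medians of 0.21 and 0.50. Mpc1, of the pyruvate carrier, had 7.76 and 7.65 at Basal and 8.99 and 9.22 at day 8 (1.23 and 1.57, limma adjusted p = 0.0708), and the ADP/ATP carrier Slc25a5 had 0.65 and 0.90. Slc25a1, the citrate carrier, had -0.16 and 0.17. The 17 kept regulators of mitochondrial gene expression were spread on both sides of 0, with medians of 0.14 and 0.25, and 6 were above 0 in both genotypes, a share near the 37% of all genes. Tfam, which packages and transcribes mitochondrial DNA, had 7.04 and 6.56 at Basal and 7.22 and 7.63 at day 8 (0.18 and 1.07). Gabpa, an ETS factor, had 0.37 and 0.57, and the coactivator Ppargc1a was the lowest, at -0.33 and -1.04.

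**Figure D4:**
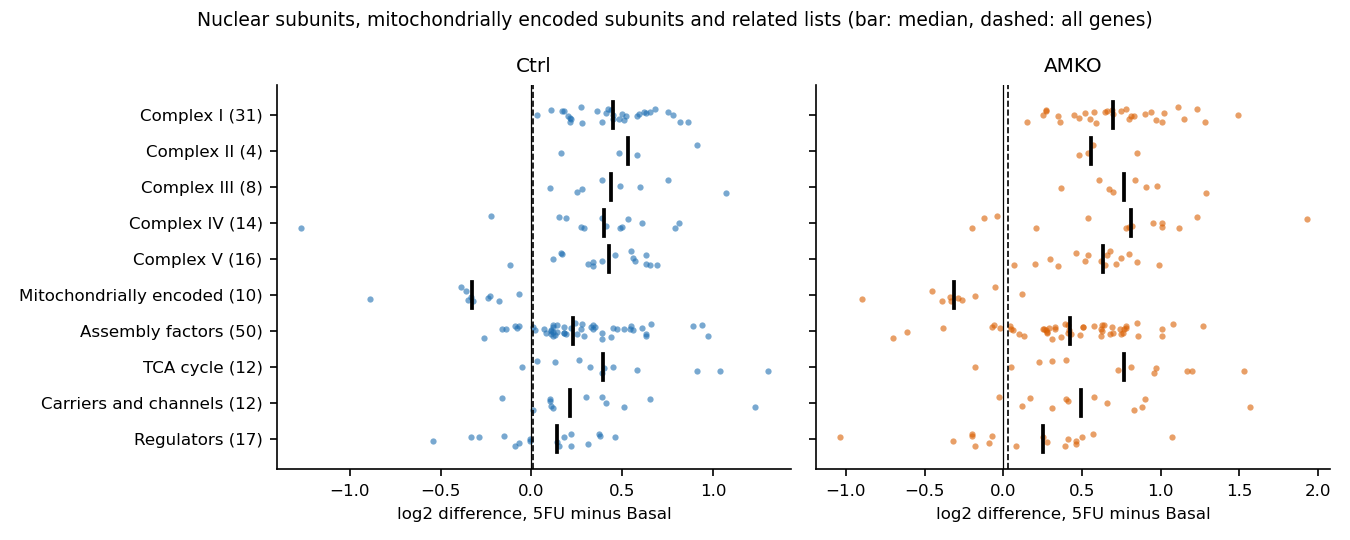
Log2 differences, 5FU minus Basal, of single genes (points) in Ctrl and AMKO, by complex and list, with the number of kept genes in brackets. Bars are medians and the dashed line is the median of all genes. The nuclear complexes lie to the right of 0, the 10 mitochondrially encoded genes mostly to the left, and the regulators on both sides.

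The 5 genes read only through shared probe sets also had higher values at day 8. The probe set of Uqcr10 and Gm6293 differed by 1.05 (Ctrl) and 0.99 (AMKO), and that of Ndufb2 and Adck2 by 0.57 and 0.79. The brighter of the probe sets that name Cox6c with Gm6265 was higher by 0.54 and 1.02, and the brighter one of Ndufs6 with Ndufs6b by 0.72 and 1.11. The probe set of Ndufb4 and its copies was higher by 0.52 and 1.36. That of Ndufs5 and Ndufs5-ps had 7.44 and 6.90 at Basal against 7.81 and 7.95 at day 8 (0.37 and 1.05). Which gene of each group gave the signal cannot be told apart. Of the 10 members with several probe sets of their own, 5 disagreed in sign with a dimmer probe set in Ctrl (Atp5e, Atp5h, Ndufa8, Ndufa11 and Ndufa12), and 2 of them, Atp5h and Ndufa8, also in AMKO. For Atp5h the dimmer one gave -0.52 and -0.80, against 0.17 and 0.80.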

How the data were processed

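The authors' deposited table held 1 log2 value for each of 34472 probe sets and 4 arrays, read as log2 from its range; its normalization and background correction are not stated in the labels or headers. Biotin-labelled cRNA was hybridised to Affymetrix arrays, per the labels' protocols. The platform annotation paired 23521 probe sets with 1 gene and 1814 with several. A gene was represented by its probe set with the highest mean. Genes whose highest value lay under 5.475 were left out. The fit's genotype term sets 5FU against Basal within each genotype. Differences of 1 array against 1 have no test. The 5FU effect over both genotypes was fitted using R 4.3.3 and its package limma 3.58.1, with Benjamini-Hochberg adjustment over all genes kept. The fit used eBayes with an intensity trend and had 1 residual and 2.62 prior degrees of freedom. It was also run on simulated data in which both genotypes had the same 5FU shift. That run does not cover genotypes that respond differently. Named members were the 2 highest and the lowest of each complex by the mean 5FU difference, Cycs, the highest and lowest core subunits, the 3 highest and 3 lowest by the difference of differences, and isoform pairs. From each related list the 2 highest and the lowest were named. Further members, the promoters shown and the motifs were chosen after their values or matches were seen. The members, lists, tests and alternatives were chosen with earlier results of these data known. Array number limits the precision.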

Additional observations from a re-analysis of the deposited data

Results flagged for a closer look

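In 3 of the kept members named above the 5FU difference had opposite signs in the genotypes, which was not tested. The same held for Ndufs5, Atp5j2 and Ndufa4l2, which lay under the floor. It also held for Cox6b2 (0.19 in Ctrl and -0.12 in AMKO), which was kept but is not named above. The difference of the 5FU differences was 1.48 for Cox7a1 (-1.27 in Ctrl and 0.21 in AMKO). It was -0.49 for Cox7c (0.29 and -0.20) and 0.19 for Atp5g1 (-0.12 and 0.07), whose values lay at the floor.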

How the results depend on the processing

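No median 5FU difference, over members or by complex, changed sign under quantile normalization, median centring, another floor or averaged probe sets. The members at least 1.5-fold higher in Ctrl were 12 after quantile normalization (11.1% of all genes) and 37 with AMKO Basal as reference (14.8% of all genes, median of complex IV 0.61 there), a reference chosen after seeing the data. At 2-fold they were 1 in Ctrl, 14 in AMKO and 3 for the difference of differences. Quantile normalization brought the median difference of differences to 0.07 in complex II and 0.08 in complex V. Median centring moved the AMKO to Ctrl median at Basal to -0.22, and the AMKO 5FU median of all genes from 0.03 to 0.15; relative to all genes the AMKO members' median was 0.67 as deposited, 0.66 after centring and 0.54 after quantile normalization. Limma called 11 members after quantile normalization, 28 with the floor at the 75th percentile, 20 with robust estimation, and 0 without a trend, with no floor, after centring or with averaged probe sets. With 1 array left out, a genotype term leaves no residual degrees of freedom, so 5FU alone was fitted and the lone array of a group was assumed to vary like the others. The median effect lay between 0.49 and 0.66, and the 0 calls of these fits say nothing about stability. With no replicate spread, a median was counted as moved past 1.5 times. Depth has no counterpart here; 1 array in each group is the limit.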
